A study of Mus musculus with 8 samples.

Results

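The 10 genes described here encode the platelet-derived growth factors (Pdgfa, Pdgfb, Pdgfc and Pdgfd), the vascular endothelial growth factors Vegfa, Vegfb and Vegfc with their relative placental growth factor (Pgf), and the angiopoietins Angpt1 and Angpt2. They were taken by symbol from the 17276 genes that each file lists, and all 10 were found. Of these, 8 had enough reads to be tested and Pdgfd and Angpt1 had not. The samples were hepatocytes, the main parenchymal cells of the liver, of wild-type male C57BL/6N mice aged 6 to 8 weeks. There were 4 libraries of hepatocytes under shear stress, the drag of moving fluid on the cell surface, and 4 of hepatocytes in static culture, and the comparison asks which transcripts differ between them. The labels give neither the strength nor the duration of the stress. They do not say whether libraries of a group came from separate animals or cultures, so the p-values reflect the spread among these libraries alone, and that spread may be technical.

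PDGFs, VEGFs and angiopoietins are secreted ligands through which cells of a tissue talk to its vessels and mesenchyme. PDGFs bind the tyrosine kinase receptors PDGFRα and PDGFRβ, which stellate cells and other mesenchymal cells of the liver carry. VEGFs bind VEGF receptors 1 to 3 on blood and lymphatic endothelium, and hepatocytes are known as a source of VEGF-A for the sinusoidal endothelium. Angiopoietin-1 activates the endothelial receptor TIE2, and angiopoietin-2 mostly opposes it. Several of these genes respond to flow, hypoxia or growth factor signals in endothelium.

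Under shear stress the transcripts of Pdgfa, Pdgfb and Pgf were higher, by 4.05-fold, 11.8-fold and 4.35-fold, and those of Angpt2, Vegfc and Vegfa were lower, by 4.03-fold, 1.91-fold and 1.81-fold. Pdgfc and Vegfb did not pass the test, but Vegfb passed, lower, once the replicate number was a block. The called ligands were thus 3 higher and 3 lower, while 24.9% of all 11747 tested genes were called higher and 23.7% lower. In all, 48.6% of tested genes were called. These counts are from the fit without the replicate block. With the block 3 ligands were higher and 4 lower, next to 61.1% called among all tested genes. Calls were thus common across the whole transcriptome, the list as a whole was not tested, and the results below are about each gene. The CPM values of the groups did not overlap for these 6 genes, as for 45.3% of all tested genes. On the TPM scale the groups overlapped for Vegfa and Vegfc. Calls are those of edgeR's quasi-likelihood test with Benjamini-Hochberg adjustment over all tested genes at a threshold of 0.05. TPM are the authors' deposited levels, scaled for gene length and library size. CPM are read counts scaled to a common library size with TMM factors, and do not account for gene length.

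Promoter sequences are shown for called members that are in the RefSeq promoter table of GRCm38.p6, so that genes that moved up can be read beside genes that moved down. The windows are the 250 bases before the 5′-most start that this promoter table lists, written 5′ to 3′ on the strand of the gene. For Vegfa and Vegfc that start is the end of the RefSeq gene span given below, while for Pdgfa and Pgf it lies inside the span, so their windows are not upstream of the whole gene. Capitals mark matches on either strand to GGGCGG, the GC box bound by SP1-family factors, or to GAGACC, the shear stress response element first described in the human PDGFB promoter. Pdgfa and Pgf were higher under shear stress.
Pdgfa, chr5:138994945-138995194, minus strand: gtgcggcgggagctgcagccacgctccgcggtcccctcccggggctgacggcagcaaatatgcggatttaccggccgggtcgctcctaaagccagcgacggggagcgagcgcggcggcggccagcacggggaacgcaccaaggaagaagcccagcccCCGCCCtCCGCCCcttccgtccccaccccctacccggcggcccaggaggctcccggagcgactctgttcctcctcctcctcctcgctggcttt
Pgf, chr12:85177314-85177563, minus strand: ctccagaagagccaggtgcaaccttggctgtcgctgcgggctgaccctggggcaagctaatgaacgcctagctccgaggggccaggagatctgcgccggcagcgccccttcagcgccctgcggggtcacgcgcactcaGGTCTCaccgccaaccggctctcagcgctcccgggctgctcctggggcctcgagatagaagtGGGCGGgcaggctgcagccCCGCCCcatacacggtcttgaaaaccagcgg
Vegfa and Vegfc were lower under shear stress.
Vegfa, chr17:46032378-46032627, minus strand: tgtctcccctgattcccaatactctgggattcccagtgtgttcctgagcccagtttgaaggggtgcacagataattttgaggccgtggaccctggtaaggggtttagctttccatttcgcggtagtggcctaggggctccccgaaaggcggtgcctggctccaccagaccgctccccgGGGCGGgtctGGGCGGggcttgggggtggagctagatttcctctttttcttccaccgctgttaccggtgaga
Vegfc, chr8:54077282-54077531, plus strand: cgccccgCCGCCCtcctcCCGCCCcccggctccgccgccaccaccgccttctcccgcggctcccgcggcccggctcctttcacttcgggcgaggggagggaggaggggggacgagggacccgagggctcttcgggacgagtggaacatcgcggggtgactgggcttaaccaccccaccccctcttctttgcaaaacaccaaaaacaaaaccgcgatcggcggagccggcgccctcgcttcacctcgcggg
Each of these 4 windows held 2 GC boxes, and 32.7% of the 32851 windows of the same length in the table held at least 1. The element GAGACC was found in the Pgf window alone among the 10 windows of 7 member genes, 106 bases before the start, and in 13.7% of all windows. Pdgfb, Angpt1 and Angpt2 had no window in the promoter table, so they were not searched for any motif. The HIF core ACGTG was found in the second Vegfa window (16.6% of all windows). That window, chr17:46025164-46025413, is not shown, and it lies inside the Vegfa gene span and not before the 5′-most start. The EGR1 site GCGGGGGCG was found in the Vegfb window (2.57% of all windows), where it overlapped a GC box. The TEAD site GGAATG was found in the Pdgfc window (12.6% of all windows). The EGR1 site GCGTGGGCG (0.536%), the AP-1 site TGANTCA (6.75%) and the FOXO site TGTTTAC (3.17%) had no match in the windows of the members. Motif letters were searched on both strands, and a match is only a description of the letters. Genes that rose and genes that fell both had GC-rich windows, with 72.4% G and C for Pdgfa, 68.4% for Pgf, 59.2% for Vegfa and 71.6% for Vegfc, against a median of 52.4% for all windows.

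Total estimated counts lay between 16225843 and 16732203 in shear stress and between 15067056 and 17935566 in static libraries. The hepatocyte label was checked against marker genes, of which 9 of 10 were listed with summed levels, mostly of Alb, of 50486 to 70049 TPM in shear stress and 64899 to 79968 TPM in static libraries. Of the 9, 7 were called lower, next to 23.7% of all tested genes. Markers of endothelium, which makes Pdgfb and Angpt2 in vivo, summed to 7.65 to 17.9 TPM in shear stress and 7.04 to 16.5 TPM in static libraries over 12 genes. These ranges overlapped, 7 of the 12 were tested, Egfl7 was called higher and Pecam1 lower, and Vwf had no read in at least 4 libraries. With the replicate block Tie1 was also called lower (log2 fold change -0.58, adjusted p = 0.0192, edgeR). Of 12 stellate cell and fibroblast markers 2 were tested and neither was called, with sums of 2.7 to 4.44 TPM in shear stress and 2.12 to 7.06 TPM in static libraries. With the replicate block Dcn, 1 of these 2, was called lower (log2 fold change -0.72, adjusted p = 0.022, edgeR). Of 9 listed macrophage markers only Cd68 was tested, and Adgre1, Clec4f, C1qa, C1qb, C1qc and Timd4 had no read in at least 4 libraries (sums of 25.2 to 78.9 TPM in shear stress and 27.0 to 68.4 TPM in static libraries). The platelet genes Pf4, Ppbp and Gp6 likewise had no read in at least 4 libraries, and the 6 genes of that list summed to 1.6 to 2.13 TPM in shear stress and 2.42 to 3.27 TPM in static libraries, with Itga2b called lower. Of the lymphocyte markers only Cd79a was tested, and it was called lower, at 0.0 to 0.89 TPM in shear stress and 2.86 to 3.99 TPM in static libraries (adjusted p = 0.00172, edgeR), having passed the filter on low counts through its static libraries. Ms4a1 had no read in at least 4 libraries. In bulk RNA, a change in the number of cells of a type and a change in RNA per cell cannot be told apart.

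Pdgfa (Gene ID 18590, chromosome 5, 138976014 to 139000792, GRCm38) encodes the A chain, whose dimers act through PDGFRα. It had 76.71, 64.84, 54.35 and 72.21 TPM in shear stress libraries 1 to 4, and 18.05, 12.58, 11.66 and 19.47 TPM in static libraries 1 to 4. Every shear stress library stood above every static library, and the lowest of them was at 54.35 TPM against a static maximum of 19.47 TPM. The log2 fold change was 2.02 ± 0.22 (SE, adjusted p = 0.000164, edgeR). Within each replicate number the log2 CPM difference was 2.0, 2.29, 2.07 and 1.8, a narrow spread around the group value. In the GENCODE M21 annotation, 813 exonic bases of Pdgfa are shared with an antisense gene, 6330403L08Rik, and without stated strand the reads of both cannot be told apart.

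Pdgfb (Gene ID 18591, chromosome 15, 79995865 to 80024614) encodes the B chain, which binds PDGFRβ as well as PDGFRα and recruits pericytes and stellate cells. It was scarce in static culture, with 9, 4, 5 and 10 reads in static libraries 1 to 4, against 142, 30, 109 and 91 reads in shear stress libraries 1 to 4. Its levels were 4.3, 0.79, 3.62 and 2.66 TPM in shear stress libraries and 0.22, 0.08, 0.18 and 0.27 TPM in static libraries. The groups did not overlap, but shear stress library 2 was well below its group. Pdgfb had the largest log2 fold change of the tested ligands, 3.56 ± 0.54 (adjusted p = 0.000732, edgeR), with 2.26 within number 2 and 2.87 to 3.69 within the other numbers. It was testable because of its reads in shear stress libraries. On TPM with a pseudocount of 1, which shrinks low levels, the log2 fold change was 1.59, and it was still called. The 4 listed cholangiocyte markers, whose sum is mostly Spp1, were at 1952, 247, 770 and 906 TPM in shear stress libraries 1 to 4 and 1311, 91.5, 629 and 493 TPM in static libraries 1 to 4. Library 2 of each group was the lowest for that sum as for Pdgfb. In static culture, however, Pdgfb was highest in library 4 and the sum in library 1. Krt19 was at most at 0.43 TPM in shear stress and 0.11 TPM in static libraries. None of the 3 tested markers of this list was called. With the replicate block Epcam (log2 fold change 1.01, adjusted p = 0.0499, edgeR) and Spp1 (0.65, adjusted p = 0.0467, edgeR) were called higher. Sox9, the other tested marker, was called in neither fit (-0.24 without the block and -0.12 with it). The part of these cells in the Pdgfb result was not tested.

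Pdgfc (chromosome 3, 81036416 to 81214040) and Pdgfd (chromosome 9, 6168363 to 6534284) encode the CUB-domain PDGFs, which are secreted as latent proteins and need proteolysis to act. Pdgfc had 3.51, 0.87, 1.21 and 1.08 TPM in shear stress libraries 1 to 4, and 1.39, 0.51, 1.46 and 2.14 TPM in static libraries 1 to 4. The groups overlapped, and shear stress library 1 stood apart, above every static library. Its log2 fold change was 0.00 ± 0.53 (adjusted p = 0.999, edgeR), and within numbers it was 1.0, 0.6, -0.58 and -1.2, with no common direction. Without shear stress library 1 the value was -0.62 (adjusted p = 0.283, edgeR). Pdgfc shares 147 exonic bases with an antisense gene, Gm16000, so the limit on strand holds for it too. Pdgfd had at most 1 read in a shear stress library and at most 2 reads in a static library, below the limit of 3 counts (0.167 to 0.199 CPM), so no difference was detectable at this depth.

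**Figure D1:**
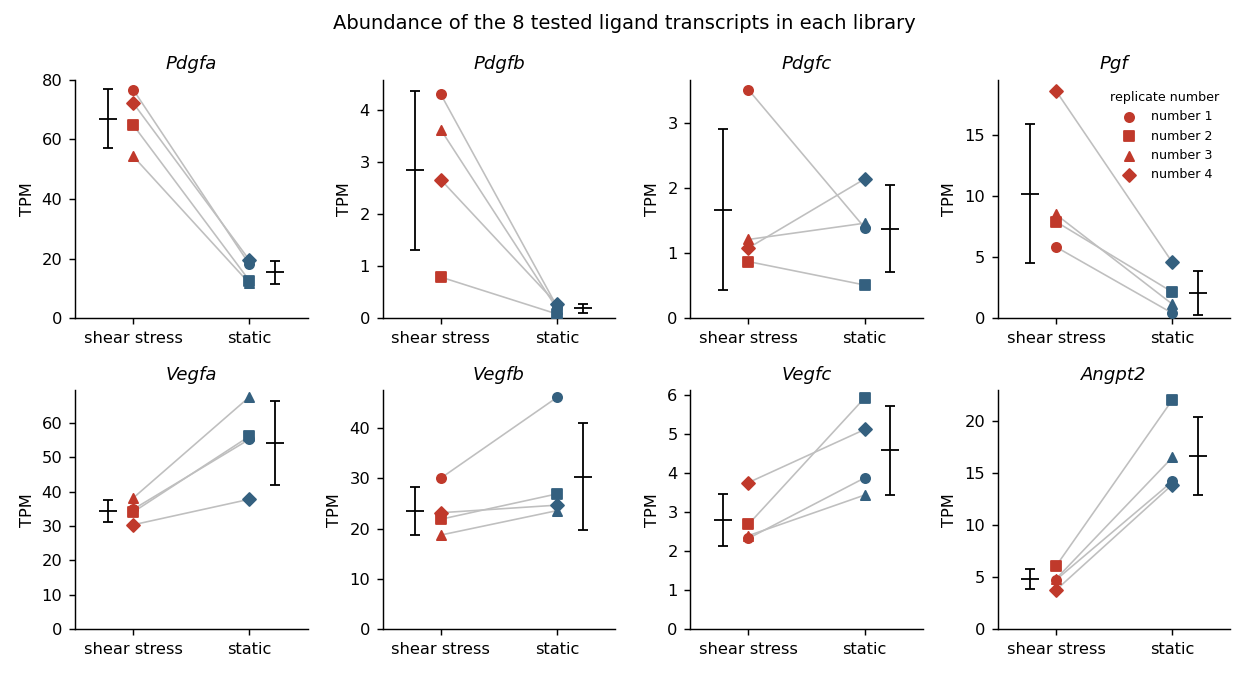
TPM (vertical axes, linear from 0) of the 8 tested ligand transcripts in the shear stress libraries (red, left) and the static libraries (blue, right). Marker shapes give the replicate number, grey lines join libraries of the same number, and black bars are means ± SD (n = 4). All 4 Pdgfa points of the shear stress group, from 54.35 to 76.71 TPM, lie above the static group, and all 4 Angpt2 points lie below it.

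Vegfa (Gene ID 22339, chromosome 17, 46016993 to 46032377) encodes the main angiogenic VEGF, which acts through VEGF receptors 1 and 2. It had 34.85, 34.04, 38.14 and 30.33 TPM in shear stress libraries 1 to 4, and 55.26, 56.14, 67.6 and 37.77 TPM in static libraries 1 to 4. On the TPM scale the lowest static library, 4, lay just under the highest shear stress library, while on the TMM-scaled CPM scale the ranges of 68.5 to 80.8 in shear stress and 95.7 to 173 in static libraries did not overlap. Vegfa fell by 0.86 ± 0.17 on the log2 scale (adjusted p = 0.00248, edgeR), and within each number the difference was negative, between -1.1 and -0.48.

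Vegfb (Gene ID 22340, chromosome 19, 6982472 to 6987651), a ligand of VEGF receptor 1 known for roles in fatty acid uptake, had 30.07, 21.87, 18.72 and 23.17 TPM in shear stress libraries and 46.18, 26.93, 23.59 and 24.68 TPM in static libraries. The groups overlapped, and number 1 was the highest in both. The log2 fold change was -0.61 ± 0.26 and did not pass the test (adjusted p = 0.0818, edgeR). With the replicate block it was -0.58 ± 0.12 and passed (adjusted p = 0.00245, edgeR), and all 4 numbers had a negative difference, from -0.81 to -0.29. With the block, 4 of the 8 tested ligands were lower and 3 higher, while 61.1% of all tested genes were called, 31% lower and 30.1% higher. Without the block, leaving out static library 1 gave -0.31 (adjusted p = 0.228, edgeR), and leaving out shear stress library 1 gave -0.77, which passed (adjusted p = 0.0459, edgeR).

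Vegfc (Gene ID 22341, chromosome 8, 54077532 to 54186454), the ligand of VEGF receptor 3 on lymphatic and sinusoidal endothelium, had 2.32, 2.68, 2.39 and 3.75 TPM in shear stress libraries and 3.87, 5.92, 3.43 and 5.11 TPM in static libraries. The CPM values did not overlap, but shear stress library 4, at 4.36 CPM, came close to the static minimum of 4.62 CPM. On the TPM scale the groups overlapped, with shear stress library 4 at 3.75 TPM above static library 3 at 3.43 TPM. Vegfc fell by 0.93 ± 0.23 on the log2 scale (adjusted p = 0.0091, edgeR), with -1.32 to -0.64 within numbers.

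Pgf (Gene ID 18654, chromosome 12, 85166637 to 85177785), a ligand of VEGF receptor 1, was higher under shear stress, while Vegfa and Vegfc were lower. It had 5.82, 7.89, 8.48 and 18.58 TPM in shear stress libraries 1 to 4, and 0.41, 2.14, 1.15 and 4.57 TPM in static libraries 1 to 4. The groups did not overlap, and library 4 was the highest of each group. The log2 fold change was 2.12 ± 0.59 (adjusted p = 0.0163, edgeR), and 2.25 ± 0.26 with the replicate block (adjusted p = 7.57e-05, edgeR). When libraries were left out in turn, the log2 fold change was lowest without shear stress library 4, at 1.66 (adjusted p = 0.0475, edgeR), and highest without static library 4, at 2.85 (adjusted p = 0.00428, edgeR). Within numbers it ranged from 1.63 to 3.17.

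Angpt2 (Gene ID 11601, chromosome 8, 18690263 to 18741562) had 4.73, 6.06, 4.82 and 3.75 TPM in shear stress libraries 1 to 4, and 14.21, 22.06, 16.52 and 13.9 TPM in static libraries 1 to 4. The highest shear stress library, at 6.06 TPM, was below the lowest static library, at 13.9 TPM. Angpt2 fell by 2.01 ± 0.16 on the log2 scale, with the smallest adjusted p of the tested ligands (4.79e-05, edgeR), and the differences within numbers were -1.78, -2.07, -2.07 and -2.08. The gene overlaps Mcph1 on the opposite strand with 0 shared exonic bases, and Mcph1 was at 10.4 CPM in shear stress and 12.0 CPM in static libraries (log2 fold change -0.2, adjusted p = 0.213, edgeR). Angpt1 (chromosome 15, 42424667 to 42676977), the TIE2 agonist, had at most 1 read in any library of either group, so it lay below the limit of 3 counts in both.

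**Figure D2:**
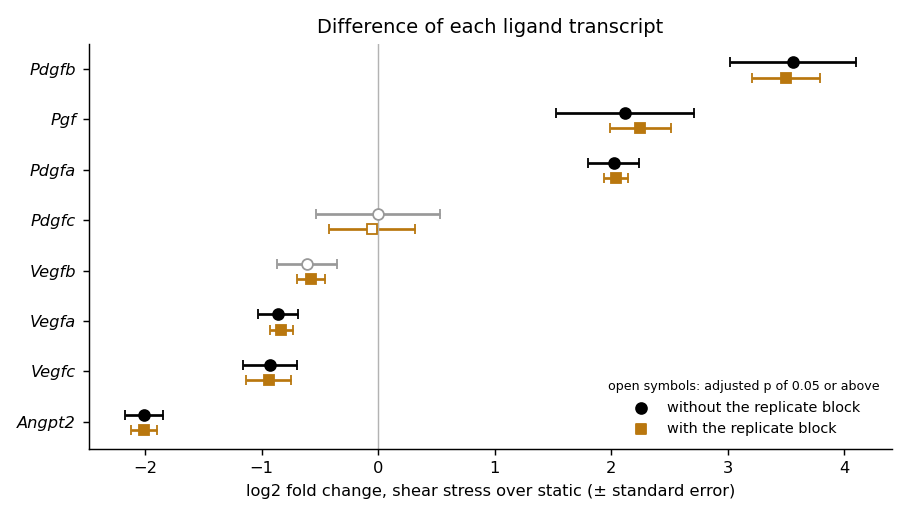
Log2 ratios of shear stress to static culture, with standard errors, for the 8 tested ligand transcripts, without (black or grey circles) and with (orange squares) the replicate number as a block. Open symbols did not pass an adjusted p of 0.05. Pdgfb (3.56), Pgf (2.12) and Pdgfa (2.02) lie to the right of 0 and Angpt2 (-2.01) farthest to the left, and of these fits Vegfb passed in the one with the block.

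The order of the ligands by TPM differed between the groups. Under shear stress Pdgfa was first at 67.0 ± 9.77 TPM (SD, n = 4), followed by Vegfa at 34.3 ± 3.21, Vegfb at 23.5 ± 4.79 and Pgf at 10.2 ± 5.71 TPM, and the ranges of these 4 did not overlap between neighbours. Angpt2 (4.84 ± 0.947 TPM), Pdgfb (2.84 ± 1.52 TPM), Vegfc (2.79 ± 0.662 TPM) and Pdgfc (1.67 ± 1.24 TPM) came next, and neighbours from Pgf down to Pdgfc had overlapping ranges. In static culture Vegfa was first at 54.2 ± 12.3 TPM and Vegfb next at 30.3 ± 10.6 TPM, with overlapping ranges. Angpt2 at 16.7 ± 3.78 TPM and Pdgfa at 15.4 ± 3.9 TPM also overlapped, and both lay above Vegfc at 4.58 ± 1.14 TPM. Pgf (2.07 ± 1.81 TPM) overlapped Vegfc and Pdgfc (1.38 ± 0.669 TPM), and Pdgfb was below these at 0.188 ± 0.0806 TPM. Pdgfd and Angpt1 were last in both groups.

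The ratio of Pdgfa to Vegfa TPM was 1.43 to 2.38 in shear stress libraries and 0.172 to 0.515 in static libraries. Pdgfa was thus more abundant than Vegfa in every shear stress library and less abundant in every static library. The 4 PDGF genes summed to 59.2 to 84.5 TPM in shear stress and 13.2 to 21.9 TPM in static libraries. The 3 VEGF genes and Pgf summed to 66.5 to 75.8 TPM in shear stress and 72.1 to 106 TPM in static libraries, which overlap. Among all listed genes, mean Pdgfa TPM was above that of 89.8% of genes under shear stress and 71.9% in static culture, and mean Vegfa TPM was above that of 82.1% under shear stress and 88.4% in static culture.

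**Figure D3:**
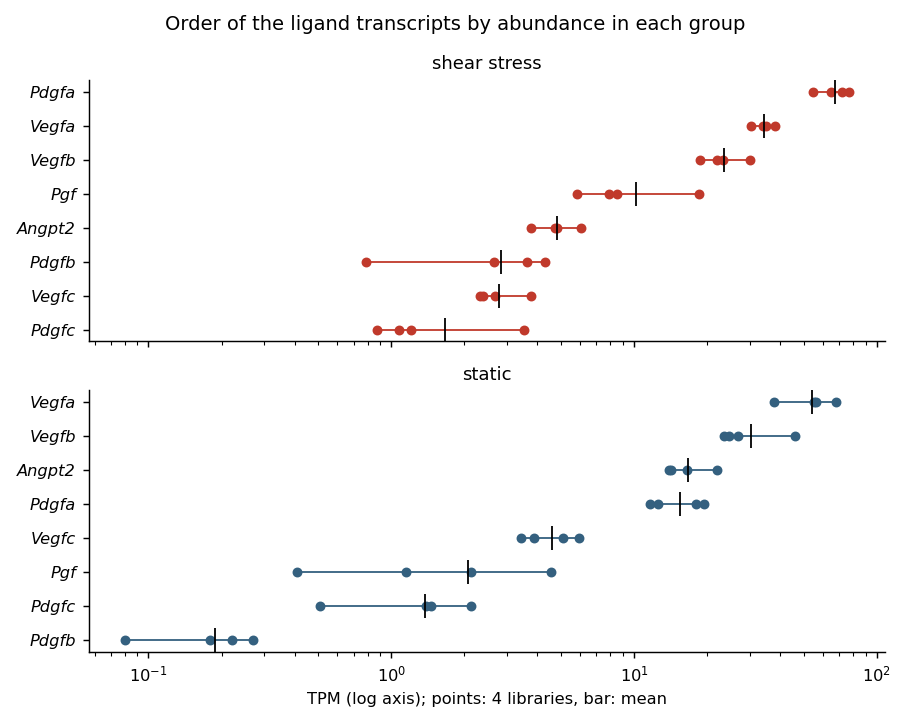
TPM on a log axis of the 8 tested ligand transcripts, ordered by mean within the shear stress group (upper panel) and the static group (lower panel). Points are the 4 libraries, coloured lines their range and black bars the mean. Pdgfa leads under shear stress (67.0 TPM) and Vegfa in static culture (54.2 TPM).

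Of 10 receptor and coreceptor genes for these ligands, 6 were tested and the other 4 had too few reads. Flt4, which encodes VEGF receptor 3, was called higher, at 8.54 ± 1.8 CPM in shear stress and 3.56 ± 1.35 CPM in static libraries (2.39-fold, adjusted p = 0.00439, edgeR). The other 5 tested genes were not called, while 48.6% of all tested genes were. Nrp1, a coreceptor for VEGFs and the most abundant of the list, was at 145 ± 48.3 CPM in shear stress and 91.8 ± 29.9 CPM in static libraries (log2 fold change 0.66 ± 0.27, adjusted p = 0.0701, and 0.000284 with the block). With the block Tie1 was also called, lower, with 2 genes higher and 1 lower, next to 61.1% called among all tested genes. Kdr, the VEGF receptor 2 gene, was at 1.36 ± 1.1 CPM in shear stress and 1.08 ± 0.28 CPM in static libraries, and Nrp1 and Kdr were chosen for mention after their values were seen. Pdgfra, Pdgfrb, Flt1 and Tek had between 0 and 20 reads in any library and were not tested. Of the other ligands of these families, Vegfd had between 1 and 20 reads and Angpt4 at most 1 read, and neither was tested.

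Proteases and cofactors that release or cleave the ligands numbered 10, of which 8 were tested, 3 were higher and 2 lower, next to 48.6% called among all tested genes. Plau, which encodes urokinase and whose product can activate PDGF-D, rose 6.7-fold to 5.22 ± 3.1 CPM in shear stress, against 0.759 ± 0.468 CPM in static libraries (adjusted p = 0.00269, edgeR). Plat, the gene of tissue plasminogen activator, which activates PDGF-C, was at 17.1 ± 12.1 CPM in shear stress and 1.51 ± 0.931 CPM in static libraries (log2 fold change 3.49 ± 0.87, adjusted p = 0.0103, edgeR), and is named after its value was seen. The groups overlapped for Plat, at 1.2 to 30.7 CPM in shear stress and 0.407 to 2.28 CPM in static libraries. Bmp1, a procollagen proteinase gene, rose 1.39-fold. Plg, the plasminogen gene, fell 1.51-fold to 779 ± 104 CPM in shear stress, against 1174.5 ± 146 CPM in static libraries, and Pcsk7, a proprotein convertase gene, fell 1.42-fold. Furin, whose product cleaves the propeptides of PDGF-A, PDGF-B and VEGF-C, was at 243 ± 29.5 CPM in shear stress and 269 ± 41.6 CPM in static libraries (log2 fold change -0.14 ± 0.14, adjusted p = 0.406, edgeR), and is named after its value was seen. With library totals in place of TMM factors 1 of the 8 was lower, with TPM none was, and the 3 rises held in each. Over all tested genes lower calls went from 2783 to 1539 with library totals and to 1356 or 1352 with TPM. Higher calls went from 2924 to 4157 with library totals and to 4044 or 4033 with TPM. With the replicate block 3 were higher and 3 lower, next to 61.1% called among all tested genes. The added call was Pcsk5 (log2 fold change -0.48, adjusted p = 0.028, edgeR).

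Hypoxia raises VEGFA transcription through hypoxia-inducible factors (HIF), so genes of that pathway were looked at beside Vegfa. Of 18 tested HIF targets, 6 were lower and 3 higher, next to 23.7% lower and 24.9% higher among all tested genes. Their median was -0.29 on the log2 scale, and that of all tested genes was -0.01. Ddit4 rose 2.07-fold, Slc2a1, the gene of the glucose transporter GLUT1, rose 1.65-fold, and Hk2, a hexokinase gene, rose 10.4-fold to 4.31 ± 2.33 CPM in shear stress, against 0.403 ± 0.274 CPM in static libraries. Hk2 had as few as 3 reads in a library, and like Plau and Plat it passed the filter on low counts through its shear stress libraries, so these folds are imprecise. Kdm3a, a histone demethylase gene, fell 1.73-fold. The other falls were those of Ndrg1 (3.29-fold), Ankrd37 (2.24-fold), Pfkfb3 (1.65-fold), P4ha1 (1.36-fold) and Pgk1 (1.33-fold), named after their values were seen. Ankrd37 had only 3 to 18 reads per library, so its fold is imprecise too. The groups overlapped for Ndrg1, at 16.2 to 52.9 CPM in shear stress and 44.4 to 161 CPM in static libraries. They also overlapped for Kdm3a, at 35.4 to 46.6 CPM in shear stress and 43.6 to 89.9 CPM in static libraries, but not for the other falls. The 6 falls were 8 with the replicate block, 3 with library totals or upper quartile factors and 2 with TPM, while the rises stayed at 3 in these settings. Over all 11747 tested genes lower calls were 2783, then 3645 with the block and 1539 with library totals. They were 1982 with upper quartile factors and 1356 or 1352 with TPM. Higher calls in the same order were 2924, 3531, 4157, 3652 and 4044 or 4033. Of 8 tested genes of the hypoxia sensing machinery, Egln2, a prolyl hydroxylase gene, was called lower, at 34.3 ± 2.51 CPM in shear stress and 44.4 ± 4.79 CPM in static libraries (adjusted p = 0.0169, edgeR). Without the replicate block Egln2 alone of the 8 was called, next to 48.6% of all tested genes. With the block 1 of the 8 was higher and 2 were lower, next to 61.1% called among all tested genes. With library totals 2 of the 8 were higher and none lower, without shear stress library 2 1 was higher, without shear stress library 4 none was called lower, and without shear stress library 3 2 were. Hif1a was at 124 ± 38.4 CPM in shear stress and 95.8 ± 13 CPM in static libraries (log2 fold change 0.37 ± 0.21, adjusted p = 0.162, and 0.0206 with the block, edgeR), and Epas1 at 77.7 ± 32.1 CPM in shear stress and 109 ± 21.5 CPM in static libraries (-0.48 ± 0.26, adjusted p = 0.151, and 0.00141 with the block, edgeR). Both are named after their values were seen.

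Transcription factors known to act on these ligand genes in other cells were described in the same way, and of 7 tested 2 were higher and 2 lower, a share near the 48.6% called among all tested genes. With the replicate block 2 were higher and 3 lower, next to 61.1% called among all tested genes. The added call was Klf5 (log2 fold change -1.39, adjusted p = 0.000395, edgeR). Egr1, which activates PDGFA and PDGFB in endothelium, fell to 239 ± 36.6 CPM in shear stress, against 451 ± 84.5 CPM in static libraries (log2 fold change -0.92 ± 0.16, adjusted p = 0.00128, edgeR). Foxo1, an activator of ANGPT2 in endothelium, was at 23.0 ± 2.47 CPM in shear stress and 15 ± 4.25 CPM in static libraries (0.63 ± 0.18, adjusted p = 0.019, edgeR). Its adjusted p was 0.0516 without static library 1 and 0.0503 without static library 4 (edgeR). Ets1 rose 1.97-fold and Sp3 fell 1.49-fold. The part of these factors in the ligand results was not tested.

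**Figure D4:**
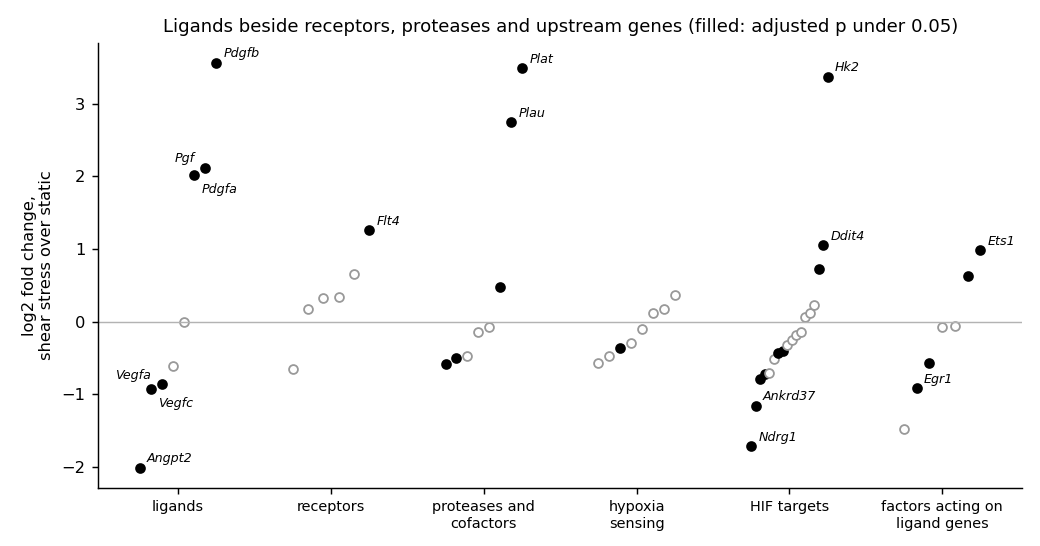
Log2 ratios of shear stress to static culture (vertical axis) for the tested ligands and for the tested genes of 5 lists of receptors, proteases and cofactors, hypoxia sensing, HIF targets and transcription factors. Each point is a gene, filled where the adjusted p was under 0.05. Pdgfb (3.56) and Plat (3.49) are at the top, and Angpt2 (-2.01) is at the bottom.

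The genes most like each called ligand were those with the smallest root-mean-square difference of gene-centred log2 CPM over the 8 libraries, among 9149 or 9150 genes of at least 5 CPM. For Pdgfa these were Mphosph6, Pinx1 and Pold2 (0.2, 0.2 and 0.23), with log2 fold changes of 2.07, 1.98 and 2.05. For Pdgfb they were Slc16a6, Noct and Synpo, at a wider distance of 0.47 to 0.5. For Vegfa they were Sgtb, Fnbp4 and Arl5b (0.09, 0.09 and 0.1). For Vegfc they were Pros1, the gene of the anticoagulant protein S, Eps8l2 and Kin (0.14, 0.17 and 0.19). For Pgf they were Pqlc3, Sema3c and Orai2 (0.52, 0.53 and 0.57), of which Sema3c was not called (adjusted p = 0.309, edgeR). With the replicate block Sema3c was called higher (log2 fold change 1.24, adjusted p = 0.0203, edgeR). For Angpt2 they were Setd1a, a histone methyltransferase gene, the kinase gene Mknk2 and Brd2 (0.12, 0.16 and 0.18), with log2 fold changes of -1.89, -2.18 and -1.91. The measure follows the group difference as well as the spread within groups.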

How the data were processed

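RNA of mouse hepatocytes was sequenced in 4 shear stress and 4 static libraries. Per the labels, RNA was extracted with TRIzol and libraries were made with phi29. RSEM, HISAT and Bowtie2 are named, per the submitters' processing notes, with mm10 and GRCm38 as builds. Which versions, annotation and strand setting were used is not given in the sources used here. The deposited read counts are expected counts, estimated by the authors before deposit, of which 9.31% to 10.66% per library were not whole (tolerance 1e-09). The authors also deposited TPM, used here for levels, and FPKM, used for 1 alternative. Depth was 15067056 to 17935566 estimated counts, and a limit of 3 counts, which covers counting error only, equals 0.167 to 0.199 CPM.

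Groups and replicate numbers 1 to 4 come from the sample titles, and the headers of both groups number the same libraries 1, 3, 4 and 5. Counts were rounded, filtered with filterByExpr (11747 of 17276 genes kept), scaled with TMM factors and tested with the edgeR 4.0.16 quasi-likelihood F test in R 4.3.3. P-values were adjusted by Benjamini-Hochberg over all tested genes, and standard errors are the log2 fold change over the square root of F. limma 3.58.1 and DESeq2 1.42.0 were used for alternatives. The procedure was also run on simulated data with few changed genes, rises and falls at random and no pairing of libraries. That run cannot speak to the pairing, to the many calls or to the scaling chosen here. The members, the gene lists, tests and alternatives were chosen with earlier results of these data known. Named genes were the 10 members, up to 4 called genes of each list by smallest p or its most abundant gene where none was called, and the 3 genes most like each called member. Genes of the lists beyond this rule were named after their values were seen. Gene positions and promoters are from RefSeq tables of GRCm38.p6, and overlaps from GENCODE M21.

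After removal of group means, same-numbered libraries of both groups had Pearson correlations of 0.679, 0.642, 0.56 and 0.467 across 8446 genes, whereas libraries with different numbers reached at most -0.0178. Removing group means pushes the latter below 0 on average once the former are positive, so the same-numbered values are the ones to read. The numbers therefore pair the libraries, although the labels do not say what they stand for. The main fit has no replicate block, so its standard errors and p-values leave this pairing out. The fit with the block is given beside a result where it changes the call. It called 61.1% of tested genes, against 48.6% without the block. The common biological coefficient of variation fell to 0.125 when the block was added, against 0.214 without it. All libraries of a group differed from each other by more than sampling noise (chi-square of counts over its degrees of freedom at least 47.8). The summed level of the lymphocyte markers is not reported here.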

Additional observations from a re-analysis of the deposited data

Results flagged for a closer look

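For 40 genes named in the text, the CPM of each group of 4 libraries was searched for a library far from the others (80 groups, of which chance alone would give about 1 in 20), and 9 groups held such a library. Among the ligands, Pdgfc was at 7.29 CPM in shear stress library 1 and at 1.83 to 2.65 CPM in the other 3. Pgf was at 15.9 CPM in shear stress library 4, against 5.38 to 6.98 CPM, and Vegfc at 4.36 CPM in the same library, against 2.6 to 2.78 CPM. Vegfb was at 37.3 CPM in static library 1 and at 19.0 to 19.4 CPM in the others. Flt4 was at 5.58 CPM in static library 4, against 2.73 to 3.03 CPM. Kdm3a was at 46.6 CPM in shear stress library 3, against 35.4 to 36.9 CPM. Sp3 was low in shear stress library 2, at 38.9 CPM against 48.6 to 49.3 CPM, as was Sgtb, at 4.12 CPM against 4.69 to 4.73 CPM. Fnbp4 was low in shear stress library 4, at 33.7 CPM against 38.6 to 39.1 CPM. The causes were not tested.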

How the results depend on the processing

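Pdgfa, Pdgfb, Pgf, Vegfa, Vegfc and Angpt2 kept their direction and their call in all 17 alternatives. Pdgfa lay between 1.9 and 2.24 on the log2 scale, Vegfa between -1.0 and -0.62, Vegfc between -1.13 and -0.52 and Angpt2 between -2.09 and -1.54. Pdgfb was at 1.59 with TPM and 1.36 with FPKM, both with a pseudocount of 1, which shrinks low genes, and Pgf at 1.66 to 2.85 when libraries were left out in turn. Vegfb was at -0.58 and called with the replicate block, and lay between -0.77 and -0.31 without single libraries. Pdgfc was at -0.01 with DESeq2, -0.017 without a filter on low counts, -0.052 with the replicate block, and between -0.62 and 0.26 without single libraries, never called. The cause of these differences was not tested.

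All genes called lower numbered 2783, and 1539 with library totals, 1982 with upper quartile factors and 3645 with the replicate block. They numbered 1356 and 1352 with TPM (pseudocounts 1 and 0.1) and 1513 with FPKM. The share of higher calls was 51.2%, and 73% with library totals, 64.8% with upper quartile factors and 74.9% with TPM, while the median log2 fold change moved from -0.01 to 0.22, 0.13 and up to 0.22, so the sign of a small change rests on the scaling chosen. Receptor genes called higher numbered 2, not 1, with library totals, upper quartile factors, DESeq2, TPM, FPKM and the replicate block, and 1 to 2 without single libraries (2 without shear stress library 3 or static library 1), and 1 was lower with the block. Proteases and cofactors called lower numbered 1 with library totals and FPKM and 0 with TPM. Hypoxia sensing genes called higher numbered 2 with library totals, TPM and FPKM, 1 with the block and 0 to 1 without single libraries, and those called lower 0 with library totals, upper quartile factors, TPM and FPKM, 2 with the block and 0 to 2 without single libraries. HIF targets called lower numbered 3 with library totals, upper quartile factors and FPKM and 2 with TPM. Factors called higher numbered 1 to 2 without single libraries (1 without static library 1 or 4). For the 32 other genes named by the rule for naming, 519 of 544 values kept direction and call, 23 lost the call, 2 gained it and 0 reversed. The replicate block changed no other call of a tested ligand than that of Vegfb. At this depth Pdgfd and Angpt1 could not be compared.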
